A study of Homo sapiens with 6 samples.

Results

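FAT protocadherins are giant cell surface proteins of the cadherin superfamily, and the 6 genes described here are FAT1, FAT2, FAT3 and FAT4 with DCHS1, which encodes a partner cadherin, and FJX1, which encodes a relative of the Golgi kinase Four-jointed. They were chosen by name from a table of 27914 genes, with earlier results of the same comparison known, so their differences between the groups are given as a description and without a p-value. Expression was measured by RNA sequencing in MCF10A, an immortalised, non-tumorigenic line of human breast epithelial cells. Of the 6 libraries, 3 came from α-/-;βin cells, called PI5P4K-low cells here after the measured fall in their targeted transcripts, and 3 from SCRin controls, whose genotype is labelled wild-type, and every library came from cells given doxycycline for 3 days. The labels do not spell out these names. The series title names PI5P4K, the kinases that phosphorylate the lipid PI-5-P, so α and β were read as the enzymes encoded by PIP4K2A and PIP4K2B. The sources used here do not say whether the α-/-;βin cells are a single clone or whether replicates came from separate cultures. The p-values below therefore cover the spread among these libraries alone, and that spread may be technical.

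In Drosophila, Fat and Dachsous are large cadherins that bind each other across neighbouring cells. They pass information on to the Hippo growth pathway and to planar cell polarity, the alignment of cells within an epithelial sheet, and Four-jointed phosphorylates their cadherin domains in the Golgi and so tunes their binding. In mammals FAT4 and DCHS1 are the closest counterparts of that receptor and its ligand, while FAT1, FAT2 and FAT3 are nearer to Fat-like, a second fly protein linked to actin and cell migration. The series title connects PI5P4K signalling with the Hippo pathway, and the comparison asks how the transcriptome of PI5P4K-low cells differed from that of the controls.

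Levels are TPM, transcript abundances scaled for transcript length and to the same total in each library, so that levels of different genes can be set side by side. They keep no sequencing depth, which is therefore unknown. Between 14738 and 15058 genes were above 0 in a library. The genes read as targeted were lower in PI5P4K-low libraries. PIP4K2A measured 4.09 to 4.35 TPM in PI5P4K-low cells and 19.8 to 21.7 TPM in SCRin controls, and PIP4K2B measured 8.20 to 11.6 TPM in PI5P4K-low cells and 20.8 to 23.1 TPM in controls. PIP4K2C, the remaining gene of the family, was not called, at 34.0 TPM in PI5P4K-low cells and 43.1 TPM in controls (limma adjusted p = 0.438), so the name PI5P4K-low refers to the α and β genes. The cells carried basal epithelial transcripts, with all 15 basal markers above the filter on low values. Of the other epithelial genes searched, GRHL2 was listed at 0 in every library, as were 10440 genes of the table, and an exact 0 can be a failed estimate. Of 9 tested general epithelial markers, EPCAM was called higher and 8 were not called. Of 3 tested luminal markers 0 were called by limma and 1 (33.3%) had an unadjusted p under 0.05, against 11.9% of all tested genes. Markers of other cell types were low. The 6 endothelial markers together reached 1.08 to 1.22 TPM in PI5P4K-low cells and 0.637 to 2.12 TPM in controls, and the 7 fibroblast markers 2.73 to 6.13 TPM in PI5P4K-low cells and 1.96 to 6.32 TPM in controls. The 6 leukocyte markers summed to 7.10 to 9.79 TPM in PI5P4K-low cells and 2.64 to 6.38 TPM in controls. Most of that sum was CD14, a lipopolysaccharide receptor, while PTPRC, the pan-leukocyte gene, was listed at 0 in every library.

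Of the FAT family, FAT1 was the most abundant transcript in both groups. FAT1, which encodes a protocadherin that binds actin regulators and is a tumour suppressor in squamous carcinomas, measured 45.03, 33.7 and 49.1 TPM in PI5P4K-low replicates 1 to 3, against 33.3, 30.7 and 39.9 TPM in SCRin control replicates 1 to 3. The groups overlapped, since PI5P4K-low replicate 2 lay among the controls and control replicate 3 lay above it. Means were 42.6 ± 7.99 TPM in PI5P4K-low cells and 34.6 ± 4.77 TPM in controls (SD, n = 3 each). On the log2(TPM + 1) scale, on which all log2 changes here were taken, the difference was 0.28 (SE 0.17, 95% interval -0.11 to 0.67). FAT1 thus stood at 1.23 times the control level, and a fall of more than 0.11 or a rise of more than 0.67 lay outside the interval. That interval ignores the replicate numbers. Each PI5P4K-low library stood above the control of the same number, and with the numbers in the fit the SE was 0.08. Whether the numbers pair the libraries is not known.

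FAT2 was the 1 member of 6 whose groups did not overlap. Over all tested genes, groups did not overlap for 17.1% in either direction and for 5.64% in the direction of FAT2. FAT2 encodes a protocadherin of epithelia that is found at the leading edge of migrating keratinocytes. It measured 9.08, 8.03 and 8.996 TPM in PI5P4K-low replicates 1 to 3, against 3.20, 2.56 and 2.47 TPM in SCRin control replicates 1 to 3. All 3 PI5P4K-low libraries stood well above the highest control. The means were 8.70 ± 0.586 TPM in PI5P4K-low cells and 2.74 ± 0.398 TPM in controls (SD, n = 3 each), a ratio of 3.17. The log2 change was 1.38 (SE 0.14, 95% interval 1.04 to 1.72), the 88th highest of 12096 tested genes. In RNA from a whole culture, more cells with FAT2 transcripts and more transcripts per cell cannot be told apart.

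FAT4, the mammalian counterpart of fly Fat, was expressed at a few TPM in every library. It measured 3.53, 3.66 and 4.26 TPM in PI5P4K-low replicates 1 to 3, against 3.40, 4.72 and 4.91 TPM in SCRin control replicates 1 to 3. The groups overlapped, because control replicate 1 was the lowest of all libraries while the other controls were the highest. Means were 3.82 ± 0.393 TPM in PI5P4K-low cells and 4.34 ± 0.823 TPM in controls, with a log2 change of -0.14 (SE 0.17, 95% interval -0.55 to 0.27). FAT3, best known from neurons of the retina, was listed at 0 in all 6 libraries, so no fold change can be given for it.

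The ligand was barely detected, while the kinase relative FJX1 was well expressed. DCHS1, the cadherin that binds FAT4, measured 0.0483, 0.130 and 0.126 TPM in PI5P4K-low replicates 1 to 3, against 0.0241, 0.0768 and 0.206 TPM in SCRin control replicates 1 to 3. No library reached 1 TPM, the groups overlapped, and the gene was below the filter used for the fit. DCHS2, the other Dachsous gene, was listed at 0 in all 6 libraries. FJX1, the Golgi kinase relative, measured 23.4, 34.3 and 29.9 TPM in PI5P4K-low replicates 1 to 3, against 21.5, 31.1 and 26.5 TPM in SCRin control replicates 1 to 3. The groups overlapped, with replicate 1 the lowest and replicate 2 the highest in each of them. Means were 29.2 ± 5.48 TPM in PI5P4K-low cells and 26.4 ± 4.80 TPM in controls, with a log2 change of 0.14 (SE 0.18, 95% interval -0.29 to 0.57). As for FAT1, each PI5P4K-low library stood above the control of the same number. With the numbers in the fit the SE was 0.06.

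**Figure D1:**
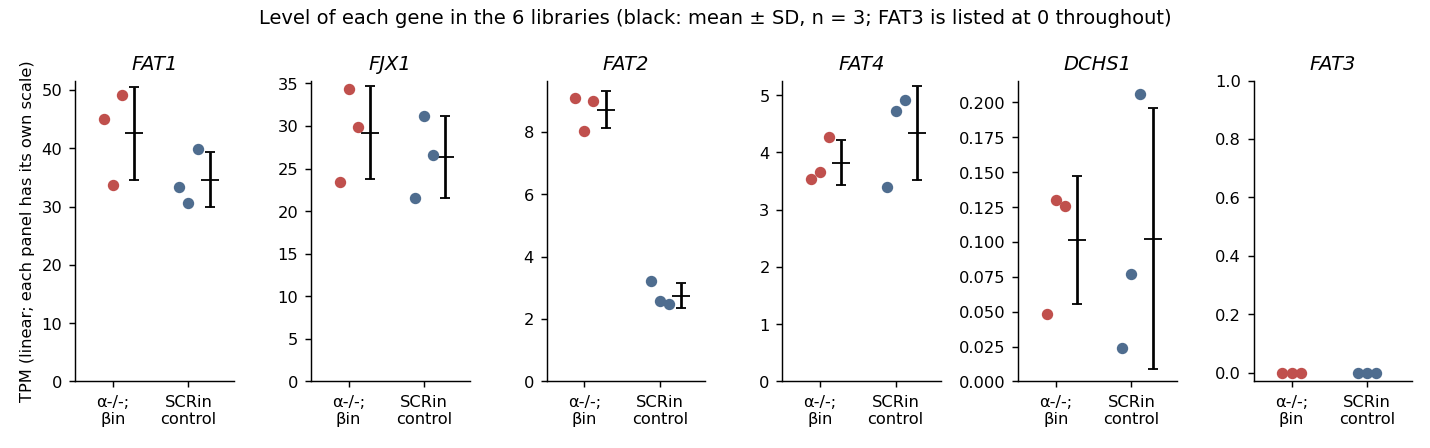
TPM of each gene on a linear axis in the 3 PI5P4K-low (α-/-;βin) libraries (red) and the 3 SCRin control libraries (blue), with mean ± SD in black and a scale of its own in each panel. FAT2 lies between 8.03 and 9.08 TPM in PI5P4K-low cells and between 2.47 and 3.20 TPM in controls, while the groups overlap for FAT1, FJX1, FAT4 and DCHS1.

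Of the 6 genes, 4 had a mean of at least 1 TPM over the libraries and entered the fit, a limma model over all 12096 genes at that level, with p-values adjusted by the Benjamini-Hochberg method and a threshold of 0.05. Among these 4, FAT2 was called higher and 0 were called lower. Over all tested genes, 0.364% were called higher, 1.83% were called lower and 2.19% were called in either direction. Groups did not overlap for 5.64% of tested genes in the direction of FAT2, and for 17.1% in either direction. Because the genes were chosen with this comparison known, nothing is read from the FAT2 call or from these shares. Replicates of FAT2 varied less than those of most genes of like level. Its within-group SD on the log2 scale was 0.12, against a median of 0.22 for 1465 genes within 0.5 log2 units of its mean TPM. FAT4 had an SD of 0.18, against a median of 0.26 for 1284 such genes. FAT1 and FJX1 varied more than most, with SDs of 0.24 and 0.26 against medians of 0.16 over 2074 and 2338 genes.

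The order of the levels differed between the groups at a single place. In PI5P4K-low cells it ran FAT1, FJX1, FAT2, FAT4, DCHS1 and FAT3, from high to low. The ranges of FAT1 and FJX1 overlapped there, and those of FJX1, FAT2, FAT4 and DCHS1 were separate from each other. In SCRin controls FAT4 stood above FAT2, with 3.40 to 4.91 TPM for FAT4 and 2.47 to 3.20 TPM for FAT2, and the ranges of FAT1 and FJX1 overlapped again. Within libraries, FAT2 stood at 2.57, 2.19 and 2.11 times FAT4 in PI5P4K-low replicates 1 to 3 and at 0.942, 0.543 and 0.503 times FAT4 in control replicates 1 to 3. FAT1 stood at 4.19 to 5.46 times FAT2 in PI5P4K-low cells and at 10.4 to 16.2 times FAT2 in controls. FJX1 relative to FAT1 overlapped between the groups, at 0.520 to 1.02 in PI5P4K-low cells and 0.646 to 1.01 in controls.

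Put as shares, the same values gave FAT2 a larger part of the family's transcripts in PI5P4K-low cells. Of the summed FAT1 to FAT4 TPM, FAT2 made up 15.8%, 17.7% and 14.4% in PI5P4K-low replicates 1 to 3, against 8.02%, 6.75% and 5.22% in SCRin control replicates 1 to 3. FAT1 made up 74.2% to 78.7% in PI5P4K-low cells and 80.8% to 84.4% in controls, so it was the bulk of the family in every library. FAT4 made up 6.12% to 8.07% in PI5P4K-low cells and 8.52% to 12.4% in controls. The shares depend on each other, so a lower share need not be a lower level. The mean of FAT1 was 42.6 TPM in PI5P4K-low cells and 34.6 TPM in controls. The summed level was 55.1 ± 8.77 TPM in PI5P4K-low cells and 41.7 ± 4.93 TPM in controls (SD, n = 3 each). Its ranges overlapped, at 45.4 to 62.3 TPM in PI5P4K-low cells and 37.95 to 47.3 TPM in controls. Among all genes of the table, 29.3% to 30.8% lay above FAT2 in PI5P4K-low libraries and 37.05% to 39.2% in controls, and 10.5% to 14.8% lay above FAT1 in PI5P4K-low libraries and 12.99% to 16.3% in controls.

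**Figure D2:**
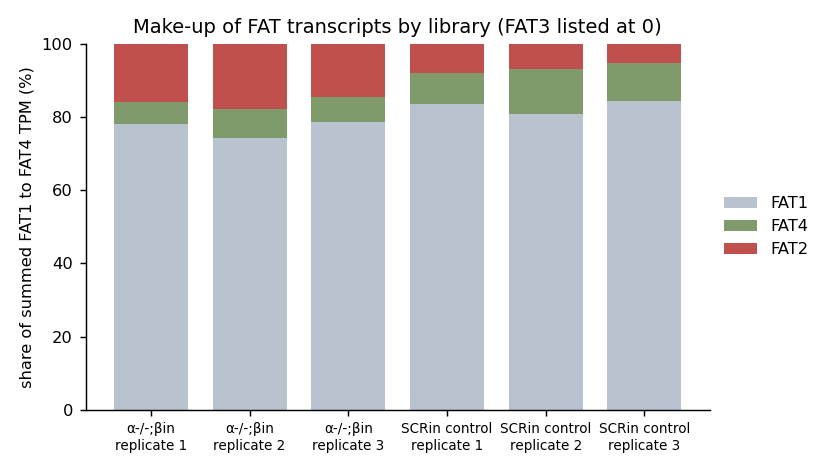
Share of each FAT gene in the summed FAT1 to FAT4 TPM, in percent, for the 3 PI5P4K-low (α-/-;βin) libraries on the left and the 3 SCRin control libraries on the right. FAT2 takes 14.4% to 17.7% in PI5P4K-low cells and 5.22% to 8.02% in controls, and FAT1 takes most of the rest in every library.

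The gene structures bear on how well these levels are measured. In GENCODE release 29 the longest coding transcripts of FAT1, FAT2, FAT3 and FAT4 run to 14786, 14534, 19030 and 16123 bases in 27, 23, 25 and 17 exons, and that of DCHS1 to 10765 bases in 21 exons. A long transcript yields more reads at the same TPM than a short one. FJX1 has a single exon of 2450 bases. Antisense genes overlap exons of FAT2, FAT3 and DCHS1 in that annotation. The sources used here do not say if strand was kept, so reads of the antisense partners cannot be told apart from those of these 3 genes.

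The sequences at the starts of FAT2 and FAT1 are shown because FAT2 is the member whose groups were separate and FAT1 the most abundant one on average. They are the RefSeq windows from 250 bases before to 50 bases after an annotated start on GRCh38.p14, read 5′ to 3′ on the minus strand, and capitals mark CpG dinucleotides. The start used in MCF10A cells was not measured. For FAT2 the window lies 22.6 kb upstream of the gene start in GENCODE release 29, and FAT1 has a second RefSeq start that is not printed.
FAT2, chr5:151591282-151591581: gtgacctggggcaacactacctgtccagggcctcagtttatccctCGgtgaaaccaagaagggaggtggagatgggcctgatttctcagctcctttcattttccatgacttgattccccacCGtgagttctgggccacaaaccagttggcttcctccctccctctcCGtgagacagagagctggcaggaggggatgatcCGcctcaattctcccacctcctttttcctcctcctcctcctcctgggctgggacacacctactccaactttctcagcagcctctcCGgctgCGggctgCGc
FAT1, chr4:186726647-186726946: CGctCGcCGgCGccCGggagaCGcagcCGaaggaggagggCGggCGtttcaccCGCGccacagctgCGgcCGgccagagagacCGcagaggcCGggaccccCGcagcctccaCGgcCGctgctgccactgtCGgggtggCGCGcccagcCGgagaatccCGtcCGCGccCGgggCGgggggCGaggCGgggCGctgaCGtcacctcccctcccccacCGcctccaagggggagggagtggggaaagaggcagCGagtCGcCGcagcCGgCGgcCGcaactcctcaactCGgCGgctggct
The FAT2 window holds 7 CpGs at a GC content of 58%, while the FAT1 window holds 40 at 77.3%. Of 35116 such windows in the genome, 36.8% have fewer CpGs than that of FAT2 and 92.4% have fewer than that of FAT1. The FJX1 window, on chromosome 11, holds 31. GGAATG, the core motif of the TEAD factors that carry YAP and TAZ to DNA, was searched on both strands. It is in 14.03% of all windows and in none of the windows of FAT1, FAT2 and FJX1, the 3 genes of the 6 that had a window.

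The neighbours of the 6 genes on the chromosomes were also compared. For each gene, the 5 nearest tested genes on either side in the RefSeq order were taken, which gave 57 distinct genes. Of these, 1 was called, or 1.75%, against 2.19% of all tested genes, and 9 (15.8%) had an unadjusted limma p under 0.05, against 11.9% of all tested genes. FAT2 lies on chromosome 5. Of its 10 neighbours 0 were called higher and 1 lower, the uncharacterised LOC100652758, which measured 2.39 ± 0.238 TPM in PI5P4K-low cells and 6.28 ± 0.159 TPM in controls (SD, n = 3 each, log2 change -1.11, SE 0.14, limma adjusted p = 0.0103). This call was lost without control replicate 2, control replicate 3 or PI5P4K-low replicate 3 (adjusted p 0.00942 to 0.0605 over the alternatives). The median log2 change of these 10 genes was -0.06, and 3 changed by more than 0. By limma 3 had an unadjusted p under 0.05, namely LOC100652758, SPARC and ANXA6, each of them lower in PI5P4K-low cells. ANXA6 measured 12.5 TPM in PI5P4K-low cells and 27.2 TPM in controls (log2 change -1.10, limma adjusted p = 0.108). The nearest neighbours of FAT2, chosen after their values were seen, were SLC36A1, an amino acid transporter, with 13.04 TPM in PI5P4K-low cells and 12.6 TPM in controls, and SPARC, a matrix glycoprotein, with 11.8 TPM in PI5P4K-low cells and 33.7 TPM in controls (log2 change -1.40, limma adjusted p = 0.0540).

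FAT1 lies near the end of chromosome 4, with 5 tested genes before it and 2 after it. By limma 0 of these 7 were called, 2 had an unadjusted p under 0.05, and their log2 changes ran from -0.86 to -0.06, all below 0. Of all 12096 tested genes, 5651 were above 0. The nearest to FAT1 were CYP4V2, a fatty acid hydroxylase, with 9.84 TPM in PI5P4K-low cells and 18.5 TPM in controls, and TRIML2, with 6.97 TPM in PI5P4K-low cells and 8.52 TPM in controls. Around FAT4, also on chromosome 4, 0 of 10 genes were called by limma and 1 had an unadjusted p under 0.05. Its nearest neighbours were ANKRD50, at 17.0 TPM in PI5P4K-low cells and 18.02 TPM in controls, and INTU, a planar polarity effector, at 1.97 TPM in PI5P4K-low cells and 1.94 TPM in controls. On chromosome 11, 0 of 10 genes were called around each of FJX1, FAT3 and DCHS1, with 0, 3 and 0 unadjusted p-values under 0.05. CD44, the hyaluronan receptor next to FJX1, measured 239.9 TPM in PI5P4K-low cells and 224 TPM in controls, and TRIM44 on its other side measured 58.4 TPM in PI5P4K-low cells and 61.3 TPM in controls. CHORDC1, next to FAT3, measured 51.9 TPM in PI5P4K-low cells and 52.9 TPM in controls, and SLC36A4 on its other side 30.8 TPM in PI5P4K-low cells and 28.5 TPM in controls. TPP1, a lysosomal protease gene next to DCHS1, measured 21.7 TPM in PI5P4K-low cells and 22.7 TPM in controls, and MRPL17, a mitochondrial ribosomal protein gene, 60.8 TPM in PI5P4K-low cells and 63.6 TPM in controls.

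**Figure D3:**
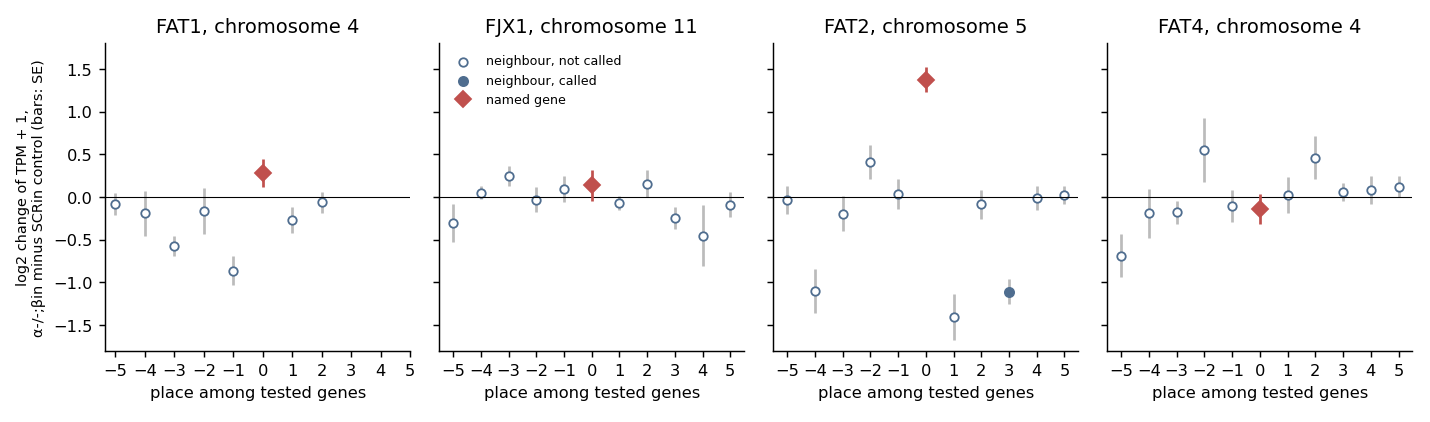
Log2 change of TPM + 1 (PI5P4K-low (α-/-;βin) minus SCRin control, bars SE) of FAT1, FJX1, FAT2 and FAT4 (red) and of the nearest tested genes before and after each in chromosome order (blue, filled where called). FAT2 stands at 1.38, while its 10 neighbours lie between -1.40 and 0.41.

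Related genes were taken from 7 lists of FAT partners, polarity and Hippo genes, secretory kinases and other cadherins. Of these, 84 were tested, of which 2 were called higher, 3 lower and 79 not called. The called share was 5.95%, against 2.19% of all tested genes, and the median log2 change was 0.01, against -0.01 over all tested genes. The lists were chosen with earlier results of these data known, so nothing is read from the called share. With a library left out, 0 to 1 were called higher and 0 to 2 lower. By limma 13 of the 84 had an unadjusted p under 0.05, against 11.9% of all tested genes. Of the 3 genes called lower, 2 lie on chromosome 3 among other lower genes.

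Direct partners gave 0 calls. The list holds actin regulators, Homer and Scribble scaffolds, junction proteins and proteases that bind or cut FAT proteins, with 20 genes in the table and 18 tested. By limma 0 were called, 1 had an unadjusted p under 0.05, and log2 changes ran from -0.37 to 0.35 with a median of -0.01. CTNNB1, which encodes the β-catenin that FAT1 can bind, measured 193.2 TPM in PI5P4K-low cells and 193.6 TPM in controls. VASP, an actin polymerisation factor bound by FAT1, measured 100.1 TPM in PI5P4K-low cells and 91.7 TPM in controls. Secretory pathway kinases, a wider group related to FJX1, had 6 tested genes, with 0 called by limma. Of these 6, 2 (33.3%) had an unadjusted limma p under 0.05, against 11.9% of all tested genes. FAM20C, the main kinase of secreted proteins, measured 35.9 TPM in PI5P4K-low cells and 60.7 TPM in controls (log2 change -0.74, limma adjusted p = 0.147). FAM20B, a xylose kinase of proteoglycan synthesis, measured 47.9 TPM in PI5P4K-low cells and 44.1 TPM in controls.

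Core planar cell polarity genes split, with 1 of 17 tested called higher, 1 lower and 15 not called, and a median log2 change of 0.06. By limma 4 (23.5%) had an unadjusted p under 0.05, against 11.9% of all tested genes. CELSR2, itself a large cadherin with a receptor domain, rose, with 4.11, 4.84 and 5.15 TPM in PI5P4K-low cells and 2.02, 2.11 and 2.28 TPM in controls, each group from low to high (log2 change 0.86, SE 0.16, limma adjusted p = 0.0485). FUZ, an effector of planar polarity and cilium formation, fell, with 1.29, 1.71 and 1.91 TPM in PI5P4K-low cells and 3.94, 4.78 and 4.80 TPM in controls (log2 change -1.07, SE 0.18, limma adjusted p = 0.0324). The groups did not overlap for either gene. Each call was lost whichever of the 6 libraries was left out, and also with no filter on low values, with adjusted p of 0.0167 to 0.215 for CELSR2 and 0.0156 to 0.154 for FUZ over the alternatives.

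Of 28 tested Hippo kinases, scaffolds and effectors, 2 were called lower, 0 higher and 26 not called, with a median log2 change of -0.004. By limma 4 (14.3%) had an unadjusted p under 0.05, against 11.9% of all tested genes. SLMAP, a subunit of the phosphatase complex that acts on the Hippo kinases, fell to 22.02 ± 2.75 TPM in PI5P4K-low cells, against 46.3 ± 5.14 TPM in controls (log2 change -1.04, SE 0.13, limma adjusted p = 0.00985). RASSF1, a scaffold of the same kinases, fell to 8.31 ± 0.835 TPM in PI5P4K-low cells, against 16.7 ± 2.71 TPM in controls (log2 change -0.92, SE 0.15, limma adjusted p = 0.0262). Both lie on chromosome 3, where 6 of the 10 nearest tested genes around RASSF1 and 2 of the 10 around SLMAP were also called lower, with medians of -0.79 and -0.38. The SLMAP call did not hold without control replicate 3 (adjusted p up to 0.0611 over the alternatives), and that of RASSF1 did not hold on leaving out any library except control replicate 2, nor with no filter on low values (up to 0.116). Around CELSR2, FUZ and DSC3, 0 of 10 genes each were called by limma.

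Among other cadherins, DSC3, a desmosomal cadherin of basal and stratified epithelia, rose, with 27.0, 28.5 and 29.02 TPM in PI5P4K-low cells and 14.5, 16.9 and 17.7 TPM in controls, each group from low to high (log2 change 0.75, SE 0.11, limma adjusted p = 0.0154). It was 1 of 4 tested desmosomal cadherins, and 3 were not called, while 2.19% of all tested genes were called. The DSC3 call was lost without control replicate 3 and without each of the PI5P4K-low replicates (adjusted p 0.00507 to 0.0752 over the alternatives). Of 8 tested classical and other cadherins, 0 were called by limma and 1 (12.5%) had an unadjusted p under 0.05, against 11.9% of all tested genes. CDH3, the P-cadherin of basal epithelia, measured 83.0 TPM in PI5P4K-low cells and 56.0 TPM in controls (log2 change 0.56, limma adjusted p = 0.314), and CLSTN1, a calsyntenin, measured 78.5 TPM in PI5P4K-low cells and 68.8 TPM in controls. Of 3 tested non-clustered protocadherins 0 were called by limma and 0 had an unadjusted p under 0.05. PCDH1, an epithelial protocadherin, measured 32.4 TPM in PI5P4K-low cells and 27.7 TPM in controls, and PCDH7 measured 6.85 TPM in PI5P4K-low cells and 5.84 TPM in controls.

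**Figure D4:**
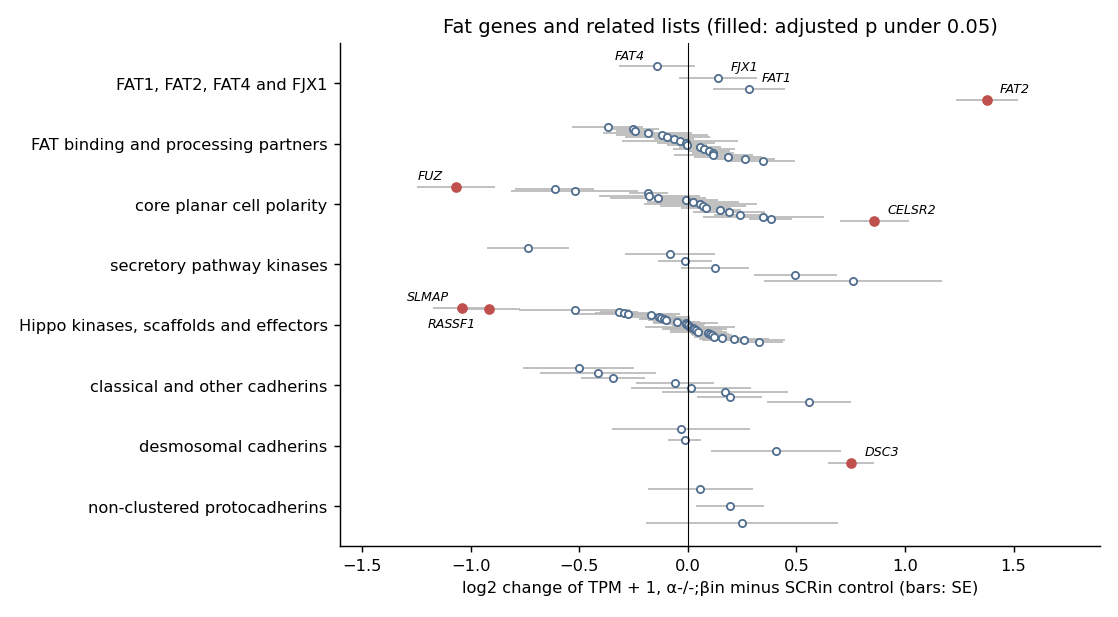
Log2 change of TPM + 1 (PI5P4K-low (α-/-;βin) minus SCRin control, bars SE) of the 4 tested genes and of the tested genes of 7 related lists, with genes past an adjusted p of 0.05 filled. FAT2, chosen with this comparison known, stands at 1.38, beyond every gene of these 7 lists, and nothing is read from that place. Of the list genes, CELSR2 and DSC3 are called higher and FUZ, SLMAP and RASSF1 lower.

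Basal epithelial markers lay mostly above 0 beside the higher FAT2. Of 15 tested, 11 changed by more than 0 on the log2 scale, as did 5651 of all 12096 tested genes. The median of the 15 was 0.50, against -0.01 over all tested genes. By limma 0 were called and 7 (46.7%) had an unadjusted p under 0.05, against 11.9% of all tested genes. Their summed level overlapped between the groups, at 6378 to 10386 TPM in PI5P4K-low cells and 6242 to 11227 TPM in controls. TP63, the gene of the basal transcription factor p63, was picked with its values in view and stood at 25.1, 25.96 and 29.6 TPM in PI5P4K-low cells and 13.1, 16.2 and 18.9 TPM in controls (log2 change 0.72, SE 0.15, limma adjusted p = 0.0664). The part of these markers, and of EPCAM and CD14, in the level of FAT2 was not tested. EPCAM, an epithelial adhesion molecule, measured 49.5 ± 5.46 TPM in PI5P4K-low cells and 10.02 ± 0.791 TPM in controls (log2 change 2.19, SE 0.12, limma adjusted p = 0.000847). CD14 measured 8.12 TPM in PI5P4K-low cells and 4.43 TPM in controls (limma adjusted p = 0.264).

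The genes most like each member across the 6 libraries were found by the root mean square difference of log2(TPM + 1), each gene centred on its own mean, among 8097 genes averaging 10 TPM or more. For FAT2 the nearest were NXN, a redox protein, at 0.23, BCL7A, a chromatin remodelling subunit, at 0.30 and CRIP2, a LIM domain protein, at 0.30, and 0 genes came within 0.2. FAT2 itself averaged 5.72 TPM, and its log2 change was the 88th highest of 12096. Few genes could therefore come close to it, and nothing is read from their absence. NXN measured 20.1 ± 1.84 TPM in PI5P4K-low cells and 7.70 ± 1.31 TPM in controls, a ratio of 2.60. BCL7A measured 18.1 ± 0.992 TPM in PI5P4K-low cells and 9.65 ± 1.27 TPM in controls. CRIP2 measured 25.1 ± 5.68 TPM in PI5P4K-low cells and 13.02 ± 0.4998 TPM in controls (SD, n = 3 each). For FAT1 the nearest were CALD1, an actin-binding protein, at 0.07, FURIN, a protease that cuts FAT1, at 0.08 and VGLL4, a TEAD cofactor, at 0.08, and 581 genes came within 0.2. For FAT4 they were TTC13, TMEM184B and NAV2 at 0.03 to 0.04, and for FJX1 RITA1, NUDT19 and MEN1 at 0.02 to 0.03. As many as 3868 genes came within 0.2 of FAT4 and 2911 within 0.2 of FJX1, so a small difference there is common.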

How the data were processed

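TPM per gene symbol was deposited by the authors in 1 table with a column for each of the 6 samples, and each column summed to 1000000. Per the submitters' processing notes, hg19 was the genome build. The sources used here name no aligner, quantification program or filter. The columns headed as experiment were assigned to α-/-;βin by replicate number, as the remaining group.

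The 12096 genes averaging 1 TPM or more were tested on log2(TPM + 1), which understates changes of low genes, with limma 3.58.1 in R 4.3.3 (empirical Bayes with a mean-variance trend, two-sided, Benjamini-Hochberg over all 12096). The procedure was run on simulated data with independent noise, in which 200 genes above a low level were changed. It recovered 81% of changes of 1 on the log2 scale and 95% of changes of 2, and 3.83% of its calls were false. Such data hold no replicate structure and no changed genes of low level, so they do not cover those cases. Each list was counted in that fit. Lists were written with older and newer symbols. Gene order came from RefSeq GRCh38.p14, which placed 11974 of the 12096 genes. This differs from the authors' build, so only order and chromosome were taken. The members and lists were chosen with earlier results of these data known. In each list up to 3 called genes per direction were named, or else its 2 most abundant genes. Called neighbours were named, or else the nearest ones, and the 3 genes most like each member. The alternatives were a pseudocount of 0.1, other filters, median-of-ratios scaling, a replicate block, no variance trend and leaving out each library.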

Additional observations from a re-analysis of the deposited data

How the results depend on the processing

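FAT2 had a log2 change of 1.32 to 1.64 over 12 alternatives, with the highest value, 1.64, at a pseudocount of 0.1. It was past the threshold in each. These are refits of the libraries whose values were known when FAT2 was chosen, so they only describe its dependence on the processing. FAT1 (0.17 to 0.44), FJX1 (0.01 to 0.28) and FAT4 (-0.27 to -0.06, in the 11 alternatives that kept it) kept their sign and were past the threshold in none. No result changed sign. Over the whole table, 265 genes were called (44 higher, 221 lower). With the replicate number as a block there were 881 (284 higher, 597 lower), and with a library left out 106 to 219 (13 to 30 higher, 91 to 189 lower). The lowest counts were 106 without control replicate 3, 119 without PI5P4K-low replicate 3 and 163 without PI5P4K-low replicate 1. In the pathway lists, 2 higher and 3 lower calls became 5 and 7 with the block and 1 and 1 with no filter, and a filter at 5 TPM left 1 higher. With a library left out there were 0 to 1 higher and 0 to 2 lower. The 1 neighbour call became 9 with the block, 2 at a pseudocount of 0.1, with median-of-ratios scaling or without the variance trend, and 0 to 2 with a library left out. The cause was not tested. The labels only number the replicates. Deviations from the group means correlated over genes at 0.25, 0.22 and -0.12 between same-numbered samples 1 to 3. Between samples of different number they correlated at -0.34 to 0.11. This does not settle whether the numbers pair samples, so the main fit left them out. TPM gives no depth, so no limit for FAT3, DCHS1 or DCHS2 can be set from counts.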
